A study of Mus musculus with 15 samples.

Results

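The hairpin line KD4 of 6DT1 cells, a mouse mammary cancer line, held 131 genes at levels that none of the other 4 lines of the study reached. These genes were chosen by their values in the libraries described here. A gene was taken when all 3 KD4 libraries lay above, or all below, the other 12 libraries and when the KD4 mean differed by at least 1.4-fold from each of the other 4 line means. It also had to reach 5 CPM (read counts scaled to the library total) in the highest line mean. The 131 genes came out of 13142 genes of the transcript table, of which 10689 reached 5 CPM. In 52 of them KD4 was the highest line, and in 79 it was the lowest.

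The study sequenced messenger RNA of 5 lines with 3 libraries each, grown as monolayers and collected 24 h after seeding, at 70% confluence. KD4 and KD6 carry different short hairpins against Smarcd1, OE carries Myc-tagged Smarcd1 for overexpression, EV carries the empty overexpression vector and shScr carries a scrambled hairpin. KD4, KD6 and shScr were selected in puromycin, OE and EV in blasticidin, and all lines were made by lentiviral transduction of 6DT1 cells. Each construct is represented by 1 line, and the replicates of a line were seeded from different passages, so the KD4 hairpin and the history of the KD4 line cannot be told apart. The values are normalised CPM and the number of reads behind them is unknown.

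Smarcd1 encodes a subunit of the BAF (SWI/SNF) complexes, which use ATP to move nucleosomes and so set which promoters and enhancers are open. A short hairpin RNA is cut into a guide strand that lowers the transcripts it pairs with, and guide strands can also pair in part with transcripts other than the target. Studies therefore use more than 1 hairpin per target, and genes that differ in a single hairpin line are usually set apart from those that differ in all of them.

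Of the 6DT1 identity markers listed for mammary epithelium, Krt8, Krt18, Krt19 and Csn3 were measured, and Epcam, Cdh1, Krt7, Cldn7, Elf5 and Wap have no row among those used. The summed level of the 4 measured markers ran from 755 to 960 CPM in KD4, against 658 to 926 CPM over the other lines. Krt8 and Krt18, with means of 429 and 394 CPM in KD4, made up most of that sum. Krt19 averaged 7.41 CPM in KD4, against 11.9 CPM in KD6 and 18.3 CPM in EV, and was lowest in KD4. Csn3 averaged 1.36 CPM in KD4, between 1.05 CPM in shScr and 5.11 CPM in EV. The list's median log2 difference of KD4 was -0.27. Of the markers of other cell types, 1 of 9 for fibroblasts was measured, 1 of 8 for endothelium, 2 of 10 for immune cells and 1 of 8 for adipocytes. The immune sum was 38.1 to 49.4 CPM in KD4, against 37.1 to 80.3 CPM in the other lines. Fewer cells of a type and less RNA per cell cannot be told apart in these libraries.

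The targeted gene was itself a member. Smarcd1 stood at 8.32, 7.22 and 8.76 CPM in KD4, at 12.2, 14.3 and 13.1 CPM in KD6, at 38.3, 37.4 and 36.4 CPM in OE, at 32.4, 27.0 and 28.8 CPM in EV and at 14.1, 17.0 and 14.7 CPM in shScr. KD4 was below every other library, while KD6 and shScr overlapped. The KD4 mean was 0.614 of the KD6 mean, the nearest line, and 0.53 of the shScr mean. Among the 12 libraries other than KD4, KD6 minus shScr was -0.20 on the log2 scale (limma, adjusted p = 0.284), so a lower Smarcd1 level in KD6 was not detectable in this table. The mean of EV and OE lay 1.17 log2 units above that of shScr and KD6 (limma, adjusted p = 1e-06). In the gene-level tables, 1 for the hairpin lines and 1 for OE and EV, Smarcd1 was 9.07, 9.05 and 9.27 CPM in KD4, and 70.4, 65.0 and 61.7 CPM in OE. The OE mean there was 65.7 CPM, against 29.7 CPM in EV, while the transcript sums gave 37.4 CPM in OE, against 29.4 CPM in EV, so the size of the overexpression depends on the table. Of 25 measured genes of the BAF list, Smarcd1 was the only member.

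**Figure D1:**
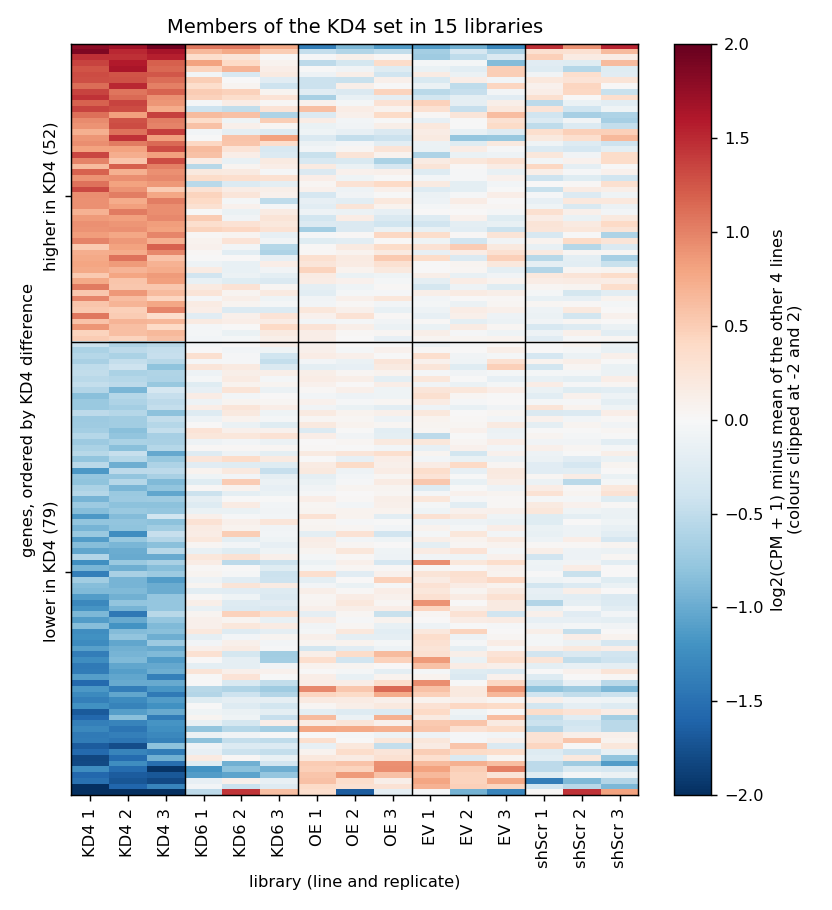
Each row is one of the 131 genes and each column a library; colour gives log2(CPM + 1) minus the mean of the other 4 line means, clipped at -2 and 2. The 3 KD4 columns are red for the 52 higher genes and blue for the 79 lower genes, as the selection requires, and the KD6 columns are paler in both blocks.

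The same selection applied to every other line in turn found 22 genes for KD6 (8 higher, 14 lower), 1 gene for OE, 14 genes for EV (9 higher, 5 lower) and 87 genes for shScr (21 higher, 66 lower). KD4 members were 0.997% of the genes of the table, and 1.23% of those that reached 5 CPM. Without the fold and level limits, the 3 KD4 libraries lay outside the other 12 for 907 genes, 6.9% of the table. That share was 5.2% for shScr, 2.85% for EV, 1.75% for KD6 and 0.883% for OE. KD4 was thus the line with most genes of its own, and the scrambled-hairpin control came next.

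**Figure D2:**
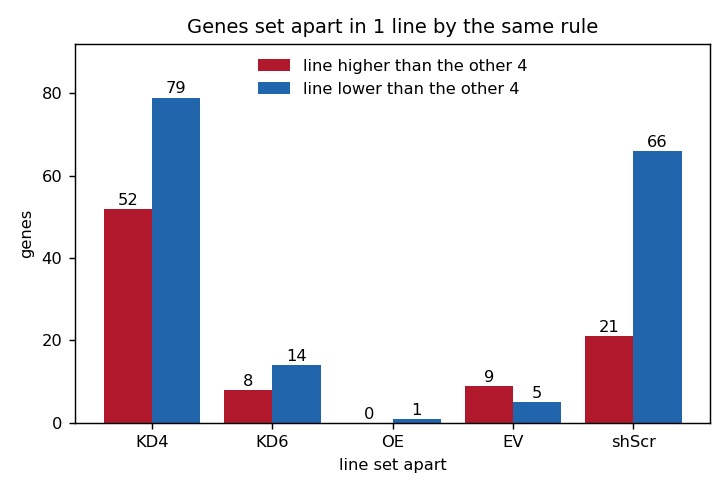
Bars count the genes set apart in each line by the same rule, with the line higher (red) or lower (blue) than the other 4. KD4 has 52 and 79 genes, KD6 8 and 14, OE 0 and 1, EV 9 and 5, and shScr 21 and 66.

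Most differences were modest. For the higher members the median ratio of the KD4 mean to the nearest line was 1.61, and to the mean of the other 4 lines 2.01. For the lower members these medians were 0.606 and 0.51. A difference of at least 2-fold from the nearest line was reached by 11 higher and 16 lower members. The higher members had medians of 13 CPM in KD4 and 5.81 CPM over the other lines. The lower members had medians of 13.6 CPM in KD4 and 27.7 CPM over the other lines. Higher members could pass the 5 CPM limit through KD4 alone, and lower members only through another line. These levels are therefore partly set by the selection. The coefficient of variation over the 3 KD4 libraries had a median of 13.1% for higher and 12.8% for lower members, against 8.63% over all genes that reached 5 CPM.

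At the limit of the selection, the members just inside were Gpr56 at 1.4-fold, Col5a3 at 1.41-fold and Alg3 at 1.41-fold from the nearest line. Just outside stood Kifc3 at just under 1.4-fold, Taf11 at 1.39-fold and Hipk3 at 1.39-fold. In Gpr56, an adhesion receptor, KD4 averaged 19.0 CPM, against 26.6 CPM in KD6. In Taf11, a subunit of the basal transcription factor TFIID, KD4 averaged 10.9 CPM, against 15.2 CPM in KD6. In the gene-level table the KD4 minus shScr difference of Alg3, a mannosyltransferase, was only -0.11 log2 units, against -0.42 here.

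Genes of the interferon response were found among the higher members. IRF9 takes part in the response to type I interferons, which acts on an interferon-stimulated response element in the promoters of antiviral genes. Of 29 measured genes on the interferon list, 4 were higher members (Rsad2, Cmpk2, Ifih1 and Gbp2), 1 was a lower member (Irf9), and the list's median log2 difference of KD4 from the other lines was 0.26, against 0.01 over all genes of the table. On that list 19 of 29 genes had a positive difference, against 6757 of 13142 in the table. Some non-members were alike in KD4 and KD6, such as Isg15 at 6.22 and 6.12 CPM. Others were not, such as Gbp7 at 36.7 and 28.2 CPM. The list's median was not computed for KD6, so its shift is not shown to be particular to KD4. Summed over the list, KD4 ran from 725 to 772 CPM, while EV ran from 755 to 778 CPM. That sum is dominated by B2m, which averaged 307 CPM in KD4, 286 CPM in KD6, 330 CPM in OE, 362 CPM in EV and 272 CPM in shScr.

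Rsad2, which encodes the antiviral enzyme viperin, stood at 12.9, 15.3 and 11.5 CPM in KD4, at 8.50, 6.15 and 4.73 CPM in KD6, at 2.78, 3.26 and 5.98 CPM in OE, at 4.31, 4.31 and 1.98 CPM in EV and at 3.63, 3.61 and 7.40 CPM in shScr. KD4 was above all 12 others, with a mean 2.04 times that of KD6 and 2.80 times the mean of the other 4 lines. Cmpk2, its neighbour on chromosome 12 and a mitochondrial nucleotide kinase, was at 5.33, 4.61 and 5.77 CPM in KD4 and between 1.34 and 3.403 CPM in the 12 other libraries. Rsad2 and Cmpk2 were 1 of 3 pairs of members that lie next to each other among genes that reached 5 CPM and had a known position. Such pairs were not counted for other sets of genes.

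Ifih1, the sensor of long double-stranded RNA known as MDA5, stood at 20.2, 20.4 and 18.8 CPM in KD4, at 14.5, 14.2 and 12.8 CPM in KD6, at 6.12, 8.28 and 9.49 CPM in OE, at 9.23, 8.85 and 7.40 CPM in EV and at 12.5, 12.2 and 12.6 CPM in shScr. KD6 minus shScr was 0.14 log2 units and was not called (limma, adjusted p = 0.637). The mean of EV and OE minus that of shScr and KD6 was -0.63 log2 units (limma, adjusted p = 0.00091), so the vector lines were the lowest.

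Gbp2, an interferon-induced GTPase, averaged 26.1 ± 3.18 CPM in KD4, against 17.9 ± 1.36 in KD6, 14.8 ± 1.05 in OE, 17.5 ± 0.369 in EV and 13.7 ± 1.64 in shScr (SD, n = 3 each). KD6 was above shScr (log2 0.36, limma adjusted p = 0.0489). Gbp4, of the same family, averaged 7.59 ± 1.01 CPM in KD4 and 4.06 ± 0.64 CPM in shScr, the nearest line. Reads of Gbp genes can be shared between close copies, so their single values are uncertain.

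Other higher members act in innate sensing or are known interferon-induced genes. Unc93b1, the chaperone that brings nucleic acid-sensing Toll-like receptors to endosomes, was at 10.95, 10.5 and 10.4 CPM in KD4, at 3.62, 2.85 and 4.47 CPM in KD6, and between 2.65 and 5.77 CPM in the 9 libraries of OE, EV and shScr. Its KD4 mean was 2.34 times that of EV, the nearest line. In the gene-level table its difference from shScr was smaller, 0.71 on the log2 scale. Sp140, a nuclear body protein that reads chromatin, averaged 9.35 CPM in KD4 and 4.22 CPM in shScr, the nearest line. Ube2l6, the conjugating enzyme of the ubiquitin-like protein ISG15, averaged 8.48 CPM in KD4, against 3.67 CPM in KD6 and 5.56 CPM in EV. Il15ra, the receptor chain that presents interleukin 15, was at 32.2, 23.3 and 40.2 CPM in KD4 and between 9.71 and 20.6 CPM elsewhere.

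Irf9 went the other way. It was at 3.51, 5.33 and 5.74 CPM in KD4, at 10.7, 6.37 and 6.81 CPM in KD6, at 8.72, 10.4 and 7.36 CPM in OE, at 19.2, 11.4 and 12.5 CPM in EV and at 8.97, 9.09 and 8.14 CPM in shScr. The gap between the highest KD4 and the lowest KD6 library was small, and the KD4 mean was 0.611 of the KD6 mean, the nearest line. Among the other lines, OE minus EV was -0.62 log2 units in Irf9 (limma, adjusted p = 0.621).

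Promoter letters were searched for motifs that were chosen after the members were seen. RefSeq promoters of build GRCm38.p6 (250 bases before to 50 after a start) were matched by symbol for 37 higher and 63 lower members and for 7742 genes that reached 5 CPM. The response element was searched on both strands as GAAA, any 2 bases and GAAA, and occurred in 4 higher members (10.8%), 4 lower members (6.35%) and 3.46% of all. The AP-1 letters TGANTCA, bound by the Fos and Jun factors, occurred in 8 higher members (21.6%), 9 lower members (14.3%) and 6.08% of all. The stretches below show both in 2 interferon genes, and the AP-1 letters alone in Il15ra and in Tspan15, the higher member farthest from its nearest line; capitals mark the matches.
Rsad2, minus strand, chr12:26456518-26456587: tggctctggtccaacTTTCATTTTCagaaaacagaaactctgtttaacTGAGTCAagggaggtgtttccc
Gbp2, plus strand, chr3:142620546-142620628: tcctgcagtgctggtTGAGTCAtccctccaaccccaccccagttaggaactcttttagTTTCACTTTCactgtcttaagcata
Il15ra, plus strand, chr2:11705667-11705703: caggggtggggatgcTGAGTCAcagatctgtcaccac
Tspan15, minus strand, chr10:62231219-62231245: tgattgcggcgcgccTGAGTCAgtcca

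In Rsad2 and Gbp2 the response element appears as the reverse complement, TTTC at each end. The stretch of Rsad2 lies 135 to 66 bases before the start, and that of Gbp2 117 to 35 bases before it. The other holders of the response element were Ifih1 and D4Bwg0951e among higher members, and Fmr1, Srgn, Coro2a and Lactb among lower ones. Other motifs searched included the antioxidant response element (TGACNNNGC), found in 21.6% of higher members, 28.6% of lower members and 16.8% of all. The TATA box (TATAAA) occurred in 13.5%, 6.35% and 8.25% in that order. The NF-kB site (GGG, any 2 bases and TTTCC) occurred in 0%, 1.59% and 1.96%. The letters CATG, any 4 bases and CATG occurred in 0%, 0% and 0.323%, and are not read as a p53 site. Members had fewer CpG pairs in the promoter, with medians of 14 for higher and 18 for lower members, against 22 over all, and a median GC content of 59.7% and 58.7%, against 61.7%. A match of letters is a description and does not show binding, and no set test was made.

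The largest higher member by distance was a membrane protein. Tspan15, a tetraspanin that partners the protease ADAM10, was at 9.94, 9.98 and 10.8 CPM in KD4, at 4.08, 3.73 and 2.99 CPM in KD6, at 2.93, 3.29 and 3.07 CPM in OE, at 1.44, 1.81 and 2.27 CPM in EV and at 4.52, 3.49 and 3.44 CPM in shScr. No library of another line reached 5 CPM, and the KD4 mean was 2.68 times the shScr mean. Mfhas1, a leucine-rich repeat protein with a GTPase-like domain, was at 35.4, 27.2 and 30.4 CPM in KD4, at 14.7, 15.9 and 13.1 CPM in KD6, at 6.17, 5.67 and 6.11 CPM in OE, at 5.24, 6.92 and 5.46 CPM in EV and at 11.4, 11.3 and 14.5 CPM in shScr. Here the lines fell into 3 levels, and the vector lines were lower than shScr and KD6 by a log2 value of -1.06 (limma, adjusted p = 1.3e-05).

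Receptors and ligands were found on both sides. Pdgfra, a platelet-derived growth factor receptor and the only measured gene of the fibroblast marker list, was at 4.81, 7.59 and 6.54 CPM in KD4 and between 1.55 and 3.99 CPM in the other 12 libraries. Fzd2, a Wnt receptor, averaged 6.74 ± 2.14 CPM in KD4 and 3.59 ± 0.294 CPM in KD6 (SD, n = 3 each), and it was the only member among 8 measured genes of the Wnt list. Ccl2, the monocyte-attracting chemokine, was at 111, 108 and 153 CPM in KD4, against 63.4 to 89.8 CPM elsewhere, and was the only member among 15 measured inflammatory genes.

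Among ligands lower in KD4, Jag2, which activates Notch on the neighbouring cell, was at 48.5, 50.8 and 40.3 CPM in KD4, at 105, 128 and 105 CPM in KD6, at 116, 95.0 and 111 CPM in OE, at 111, 86.5 and 112 CPM in EV and at 87.8, 106 and 108 CPM in shScr. The other lines overlapped one another and KD4 lay at 0.464 of the nearest mean. Jag2 was the only member among 14 measured genes of the Notch list. Of the semaphorins, a family of guidance ligands and receptors, Sema4d, Sema4c and Sema6d were lower members, as were 79 of all 131 members. They were picked after their values were seen, and semaphorins were not counted over the table. In the gene-level tables Sema4c did not meet the whole selection.

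Sema4d was at 8.68, 8.06 and 7.89 CPM in KD4, at 12.2, 12.8 and 15.9 CPM in KD6, at 41.0, 50.5 and 42.3 CPM in OE, at 44.1, 38.0 and 33.3 CPM in EV and at 23.3, 27.0 and 25.3 CPM in shScr. Unlike Jag2, it differed among the other lines as well: KD6 was lower than shScr by a log2 value of -0.85 (limma, adjusted p = 0.00218), and EV and OE were higher than shScr and KD6 by 1.11 (adjusted p = 9.81e-06). Its order of levels, KD4 below KD6 below shScr below EV and OE, was the order of Smarcd1, although KD6 and shScr were not separated in Smarcd1. The line means of Trp53inp1 and Car12 had this order too, and genes with the whole order were not counted. By selection KD4 is lowest in every lower member. Of the 79 lower members, 42 had EV and OE means both above those of shScr and KD6, and 33 had the KD6 mean below that of shScr. A link to the Smarcd1 level was not tested, and the same libraries served to choose the members.

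**Figure D3:**
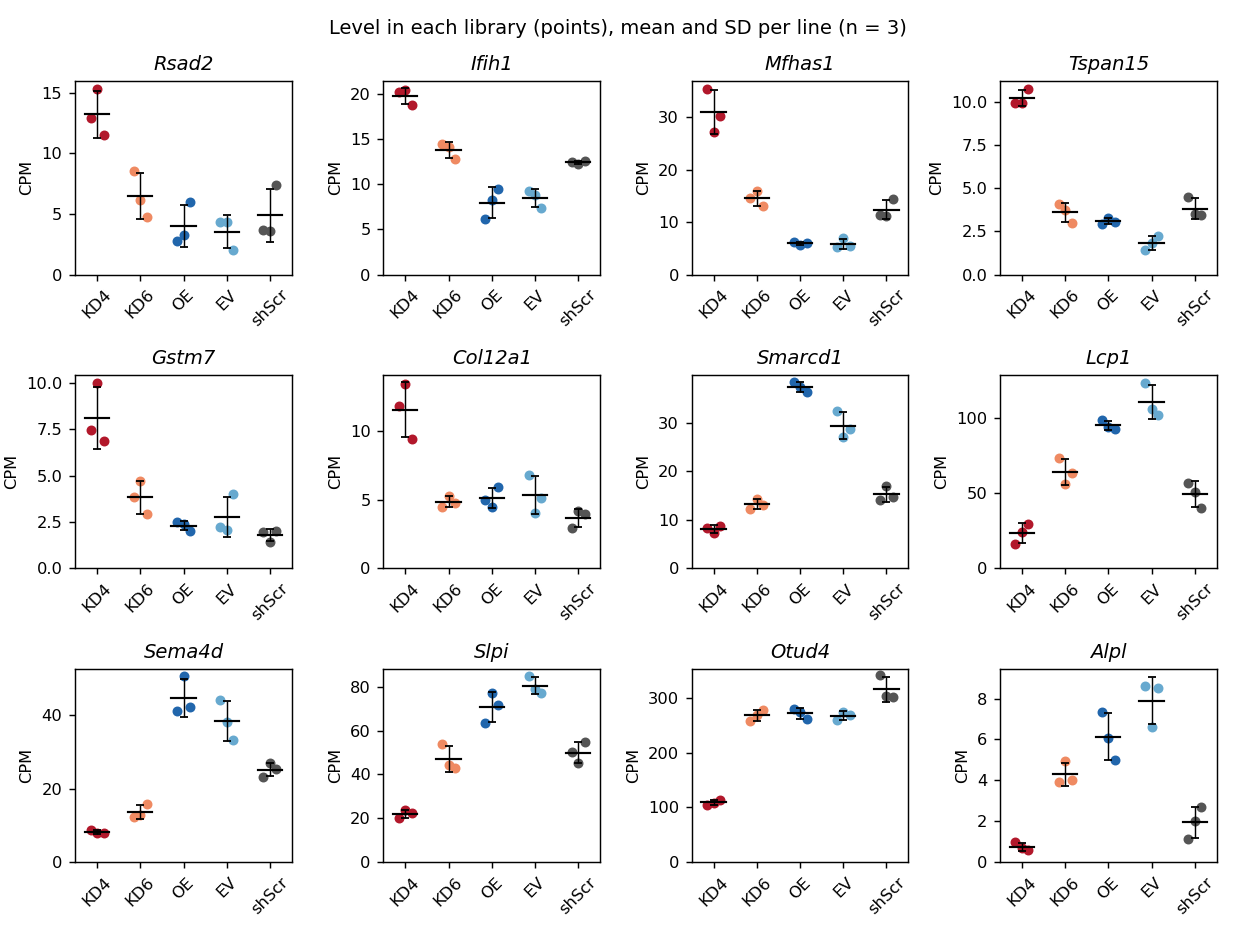
Points are the 3 libraries of each line in CPM, with the mean and SD as lines, for 6 higher (Rsad2, Ifih1, Mfhas1, Tspan15, Gstm7, Col12a1) and 6 lower members. KD4 stands alone in each panel, while in Otud4 shScr lies above KD6, OE and EV, and Sema4d, Smarcd1 and Lcp1 are higher in OE and EV than in KD6 and shScr.

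Genes of the matrix and of secretion were also divided. Col12a1, a fibril-associated collagen, was at 11.9, 13.4 and 9.42 CPM in KD4 and between 2.96 and 6.83 CPM in the others. Col5a3, a chain of type V collagen, averaged 127.7 ± 11.4 CPM in KD4, 70.6 ± 8.30 CPM in KD6, 15.9 ± 2.77 CPM in OE, 15.9 ± 1.95 CPM in EV and 90.8 ± 20.4 CPM in shScr. The mean of EV and OE minus that of shScr and KD6 was -2.25 log2 units, the largest such value of any member (limma, adjusted p = 7.6e-07). Ntn4, a netrin of basement membranes, averaged 5.83 CPM in KD4 and 2.92 CPM in KD6, and Tuft1, a tuftelin, 11.96 CPM in KD4 and 5.29 CPM in shScr. None of the 30 measured genes of the matrix and adhesion list was a member.

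Slpi, a secreted inhibitor of leukocyte proteases, was at 19.9, 23.6 and 22.3 CPM in KD4, at 53.8, 44.5 and 43.0 CPM in KD6, at 63.4, 77.3 and 71.6 CPM in OE, at 85.0, 79.2 and 77.4 CPM in EV and at 50.2, 45.02 and 54.6 CPM in shScr. KD4 was at 0.466 of the KD6 mean. Serpine2, an inhibitor of serine proteases, was at 24.0, 22.7 and 21.6 CPM in KD4, against 33.8 to 54.1 CPM in the others. In Serpine2 KD6 was higher than shScr (log2 0.41, limma adjusted p = 0.0119). The same was true of Olfm1, a secreted olfactomedin protein, with 51.7 ± 4.64 CPM in KD4, 101.9 ± 6.73 CPM in KD6 and 75.8 ± 3.04 CPM in shScr (log2 KD6 minus shScr 0.42, adjusted p = 0.00729). Srgn, the proteoglycan core of secretory granules, was at 2.58, 4.35 and 4.75 CPM in KD4 and between 8.57 and 14.3 CPM elsewhere.

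Alpl, tissue-nonspecific alkaline phosphatase, was at 0.978, 0.696 and 0.597 CPM in KD4, at 3.93, 4.95 and 4.02 CPM in KD6, at 7.32, 6.06 and 5.01 CPM in OE, at 8.60, 6.59 and 8.51 CPM in EV and at 1.14, 2.00 and 2.69 CPM in shScr. The highest KD4 library was close to the lowest shScr library. KD6 was above shScr by 0.88 log2 units (limma, adjusted p = 0.0207).

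Among genes of conjugation and detoxification, Gstm7 and Gstm2, glutathione S-transferases of the mu class and neighbours on chromosome 3, were higher members, 2 of 19 measured genes of the NRF2 and glutathione list. Gstm7 was at 7.48, 10.0 and 6.87 CPM in KD4, at 3.85, 4.71 and 2.91 CPM in KD6, at 2.52, 2.37 and 2.02 CPM in OE, at 2.25, 2.07 and 4.004 CPM in EV and at 1.97, 1.398 and 2.00 CPM in shScr. Gstm2 was at 10.0, 13.7 and 10.8 CPM in KD4, at 7.89, 5.36 and 5.10 CPM in KD6, at 4.41, 4.65 and 5.40 CPM in OE, at 5.87, 4.89 and 6.71 CPM in EV and at 3.18, 3.90 and 3.27 CPM in shScr. KD6 lay above shScr in both, by 0.78 log2 units for Gstm7 (limma, adjusted p = 0.0364) and 0.66 for Gstm2 (adjusted p = 0.0286). The mu class genes are close copies, so their reads may be divided between them.

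The rest of that list did not follow. Its median log2 difference of KD4 was -0.07, and 7 of 19 genes were above the other lines. Nfe2l2, which encodes the transcription factor NRF2 and is not on the list, was a lower member, with 75.5 ± 2.90 CPM in KD4, 113 ± 2.49 in KD6, 128 ± 8.67 in OE, 133 ± 9.12 in EV and 111 ± 6.36 in shScr. Chst8 and Ust, sulfotransferases of sugar chains, and Sult2b1, a sulfotransferase of sterols, were higher members. Ust was at 13.5, 14.7 and 15.8 CPM in KD4, at 9.17, 10.2 and 8.76 CPM in KD6 and at 6.17, 5.39 and 4.71 CPM in shScr, and KD6 was above shScr by 0.70 (limma, adjusted p = 0.00707). Galnt3, which starts mucin-type O-glycans, was on the lower side, at 2.85, 2.97 and 3.41 CPM in KD4 and between 5.82 and 13.7 CPM elsewhere.

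Several actin-binding proteins and regulators of small GTPases were members. Most of those named here were lower, as were 79 of all 131 members. The group was chosen after the values were seen, and such genes were not counted over the table. Lcp1, which bundles actin filaments and is best known from blood cells, was at 16.3, 24.4 and 29.5 CPM in KD4, at 72.9, 55.7 and 63.1 CPM in KD6, at 98.1, 93.7 and 92.7 CPM in OE, at 123, 105 and 102 CPM in EV and at 56.7, 51.0 and 40.2 CPM in shScr. Cotl1, a coactosin-like actin-binding protein, was at 11.2, 10.1 and 11.1 CPM in KD4, against 20.7 to 36.4 CPM in the others. Of the immune marker list, Ptprc has no row among those used, and Cd68 averaged 29.6 CPM in KD4, 37.9 CPM in KD6, 55.9 CPM in OE, 62.0 CPM in EV and 34.9 CPM in shScr; its part in the Lcp1 values was not tested. In Lcp1 and Cotl1, OE and EV were above shScr and KD6, by 0.86 (limma, adjusted p = 7.77e-05) and 0.48 (adjusted p = 0.000522) log2 units. Coro2a, Dock4, Abi2, Arap1, Cyth4, Arhgap27 and Rapgef5 were lower as well, with KD4 at 0.523 to 0.707 of the nearest line. Arhgap27, a Rac and Cdc42 GTPase-activating protein, averaged 4.61 CPM in KD4, 7.53 CPM in KD6 and 6.52 CPM in shScr, against 23.5 CPM in OE and 18.6 CPM in EV. In the gene-level table its KD4 minus shScr difference was only -0.15 log2 units. Sorbs3, Sept6, Arhgef10 and Rhobtb1 of the same field were higher members.

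Among enzymes and signalling proteins, Otud4, a deubiquitinase, was at 105, 108 and 114 CPM in KD4, at 258, 268 and 278 CPM in KD6, at 280, 275 and 261 CPM in OE, at 259, 275 and 268 CPM in EV and at 341, 303 and 302 CPM in shScr. KD6, OE and EV overlapped and the 3 shScr libraries lay above them, with KD6 minus shScr at -0.23 log2 units (limma, adjusted p = 0.0477). KD4 stood at 0.407 of the EV mean, the nearest line. Its relative Otud1 was a higher member, with 21.4 ± 2.12 CPM in KD4 and 14.2 ± 0.0921 CPM in shScr. Tgoln1, a protein of the trans-Golgi network, was at 123, 133 and 146 CPM in KD4, against 270 to 359 CPM in the others. Ccnb1ip1, an E3 ligase known for its part in meiotic crossing over, was at 0.973, 0.910 and 1.04 CPM in KD4, at 1.95, 2.72 and 2.64 CPM in KD6 and at 5.35, 6.65 and 4.47 CPM in shScr. KD6 was below shScr by a log2 value of -0.91 (limma, adjusted p = 0.00401).

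Lrrk2, the large kinase linked to Parkinson disease, was a higher member. It was at 31.2, 40.9 and 50.5 CPM in KD4, at 17.9, 16.3 and 15.5 CPM in KD6 and at 23.9, 26.5 and 26.3 CPM in shScr, and KD6 was below shScr (log2 -0.60, limma adjusted p = 0.00617). Brsk1, a kinase of neuronal polarity, was at 1.12, 1.56 and 2.83 CPM in KD4 and between 3.33 and 8.46 CPM elsewhere. Aqp8, a water channel, was at 1.17, 1.02 and 2.92 CPM in KD4 and between 3.94 and 9.16 CPM elsewhere. Gdpd1, a lysophospholipase D, was at 0.922, 1.85 and 1.37 CPM in KD4, at 4.72, 2.47 and 4.15 CPM in KD6 and at 3.67, 3.14 and 2.09 CPM in shScr, with 8.59 to 11.7 CPM in OE and EV. Itga8, an integrin chain, averaged 2.13 ± 0.872 CPM in KD4 and 4.39 ± 0.837 CPM in shScr (SD, n = 3 each).

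Car12, a carbonic anhydrase of the cell surface, was at 14.4, 11.6 and 8.42 CPM in KD4, at 14.95, 19.7 and 17.6 CPM in KD6, at 49.8, 48.7 and 68.9 CPM in OE, at 63.0, 50.4 and 72.4 CPM in EV and at 24.4, 28.5 and 28.1 CPM in shScr. In the gene-level tables the highest KD4 library, at 15.5 CPM, passed the lowest KD6 library, at 14.8 CPM, and the selection was not met. KD6 minus shScr was -0.61 (limma, adjusted p = 0.0433), and the vector lines were above by 1.39 (adjusted p = 1.04e-05). Trp53inp1, a p53-induced stress protein, was also higher in EV and OE than in shScr and KD6 (log2 0.97, limma adjusted p = 1.58e-05), with 50.9 ± 7.05 CPM in KD4, 83.6 ± 6.02 CPM in KD6, 175 ± 24.4 CPM in OE, 167 ± 26.6 CPM in EV and 89.5 ± 3.00 CPM in shScr. KD6 minus shScr was -0.10 log2 units there (adjusted p = 0.728) and was not called. It was the only member of 21 measured p53 targets.

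Kcnt1, a sodium-activated potassium channel, had the most extreme ratio and the least secure values. It was listed at 0.00196, 0.00193 and 0.00205 CPM in KD4, which is close to no reads, at 4.44, 20.03 and 10.8 CPM in KD6, at 8.86, 1.47 and 5.91 CPM in OE, at 6.67, 3.06 and 2.14 CPM in EV and at 6.90, 20.4 and 12.7 CPM in shScr. In the gene-level tables it was 0.0037, 1.33 and 1.38 CPM in KD4, against 3.06 to 35.9 CPM elsewhere. The tables disagreed between libraries of one line, so no fold is given.

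Regulators of transcription and of RNA were among the members too. Bach2, a repressor best known from lymphocytes, was higher, at 16.0, 15.4 and 10.1 CPM in KD4 and between 3.70 and 9.03 CPM elsewhere. In the gene-level tables its KD4 libraries, at 12.1, 14.5 and 6.70 CPM, overlapped the others, which reached 7.57 CPM, and the selection was not met. Sox9, a factor of mammary progenitors and cartilage, averaged 38.8 ± 10.8 CPM in KD4 and 26.5 ± 2.60 CPM in OE, and Hoxa7 averaged 6.04 CPM in KD4 and 3.31 CPM in EV. Lower were Kat2b, a histone acetyltransferase, with 37.7 ± 3.28 CPM in KD4 and 60.9 ± 1.01 CPM in shScr, and Mlx, a partner of the glucose-sensing factor MondoA, with 15.1 CPM in KD4 and 23.0 CPM in shScr. A pseudogene of Kat2b was also a member, and reads may be shared between them. Fmr1, Cpeb4 and Prrc2c, RNA-binding proteins, were lower, at 0.706, 0.524 and 0.708 of the nearest line.

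Some mitochondrial proteins encoded in the nucleus were lower members, as were 79 of all 131 members, while Cmpk2 was a higher one. They were picked after their values were seen, and such genes were not counted over the table. Ppif, the cyclophilin of the permeability pore, averaged 21.96 ± 0.987 CPM in KD4 and 36.1 ± 0.616 CPM in KD6. Tfb2m, a factor of mitochondrial transcription, averaged 26.8 CPM in KD4 and 39.4 CPM in KD6. Mtch2, Tmem14c, Lactb, Prodh and Top1mt were lower too. The 13 genes encoded in mitochondrial DNA had no member. Their share of the table was 4.87% to 5.22% in KD4, 4.69% to 5.7% in KD6, 6.34% to 6.93% in OE, 5.93% to 6.49% in EV and 4.66% to 5.9% in shScr.

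Besides the matrix and adhesion list, the mitochondrially encoded genes and the marker lists other than that of fibroblasts, the lists with no member were those of epithelial and mesenchymal genes, the integrated stress response, endoplasmic reticulum chaperones, cholesterol synthesis, hypoxia and glycolysis, ERK feedback, YAP targets, TGF-beta, proliferation, retinoic acid response and amino acid carriers. In cholesterol synthesis 20 of 21 measured genes were above the mean of the other lines in KD4, yet the list sum of 1380 to 1763 CPM in KD4 overlapped the 1408 to 1745 CPM of KD6.

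The other lines were then compared with one another, where KD4 does not enter. These 12 libraries were fitted with limma on log2(CPM + 1), and genes were called at an adjusted p under 0.05. The selection limits how far another line can lie towards KD4, so the counts are read only beside the background. For KD6 minus shScr, 598 of 13142 genes were called (4.55%; 5.04% of those that reached 5 CPM), and 16 of the 131 members (12.2%). Of the higher members, 5 rose and 3 fell in KD6. Of the lower members, 3 rose and 5 fell. The KD6 and shScr libraries also served to choose the members, so no shared direction with KD4 is read from these counts. The count of called members was 7 with only KD6 and shScr in the fit and 7 to 9 without KD6 replicate 1 or 2 or any of the shScr libraries, so single calls here rest on few libraries.

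For the mean of EV and OE minus the mean of shScr and KD6, 2454 genes were called (18.7%; 20.3% of those that reached 5 CPM), and 42 members (32.1%). Among higher members, 10 of the 14 called were lower in EV and OE, and among lower members, 25 of the 28 called were higher in EV and OE. Over all genes of the table the calls were 1492 higher and 962 lower in EV and OE. All of these libraries also served to choose the members, so no shared direction with KD4 is read from this split. Vector, drug and line history differ together in this contrast and cannot be told apart. For OE minus EV no gene of the table was called (0%), and 1019 genes (7.75%) and 11 members had an unadjusted p under 0.05. The members with the smallest p there, none of them called, were Il15ra at -0.65, Tspan15 at 0.54, Smarcd1 at 0.34, Irf9 at -0.62 and Serpine2 at -0.24 on the log2 scale, and each had an adjusted p of 0.621.

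**Figure D4:**
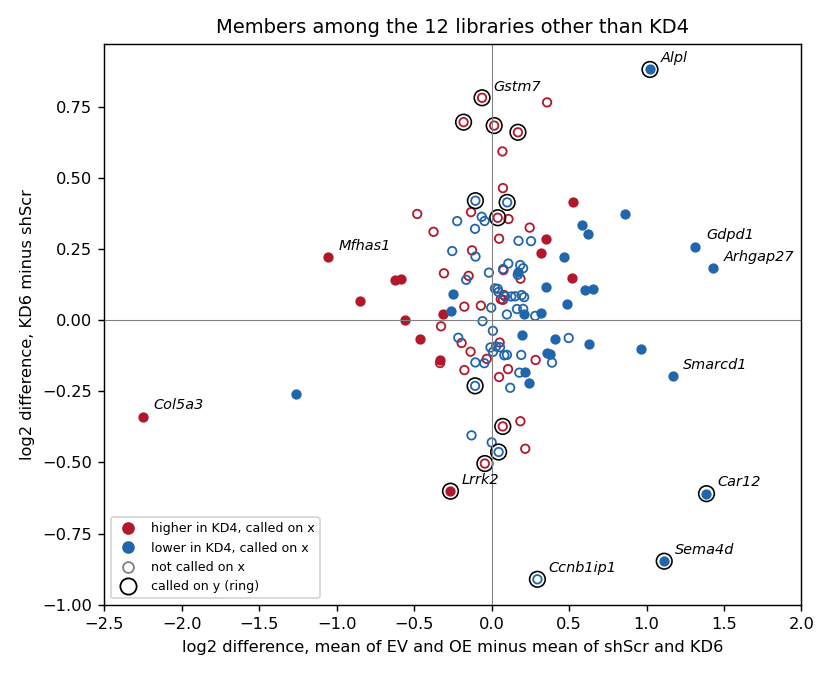
Each point is a member, with the vector minus hairpin difference on the x axis and KD6 minus shScr on the y axis, both in log2 units over the 12 libraries other than KD4. Filled points are called on x (14 higher, 28 lower) and ringed points on y (16); Col5a3 lies at -2.25 on x and Sema4d at -0.85 on y.

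Transcript shares were described for the 60 members with several listed transcripts. In 9 of them (15%) the share of a transcript in the 3 KD4 libraries lay outside that of the other 12 libraries, and in 202 of 6942 genes that reached 5 CPM (2.91%). Shares use the values that chose the members, so the higher rate among members is not read as a finding. The share of the main Ppif transcript (ENSMUST00000022419) was 66.0%, 66.8% and 69.0% in KD4, against 77.4% to 85.3% in the other libraries. That transcript averaged 14.8 CPM in KD4 and 28.55 CPM in KD6, while ENSMUST00000125881 of Ppif averaged 5.74 and 6.07 CPM. Its share thus fell together with the selected drop of the gene. For Etnk1, an ethanolamine kinase, transcript ENSMUST00000032413 made up 78.7%, 79.3% and 83.0% in KD4, against 87.3% to 91.4%. In Abtb2 the main transcript had 88.7% to 90.8% in KD4, against 65.2% to 87.3%, and in Ly6c1 transcript ENSMUST00000179762 had 7.23% to 17.5% in KD4, against 18.2% to 35.5%. The largest mean changes of share, in Bach2, Sema6d, Arhgap27, Irf9 and Il12rb1, overlapped between KD4 and the other lines. In Bach2 transcript ENSMUST00000108180 ran from 45.1% to 93.8% in KD4, against 9.76% to 97.2%.

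**Figure D5:**
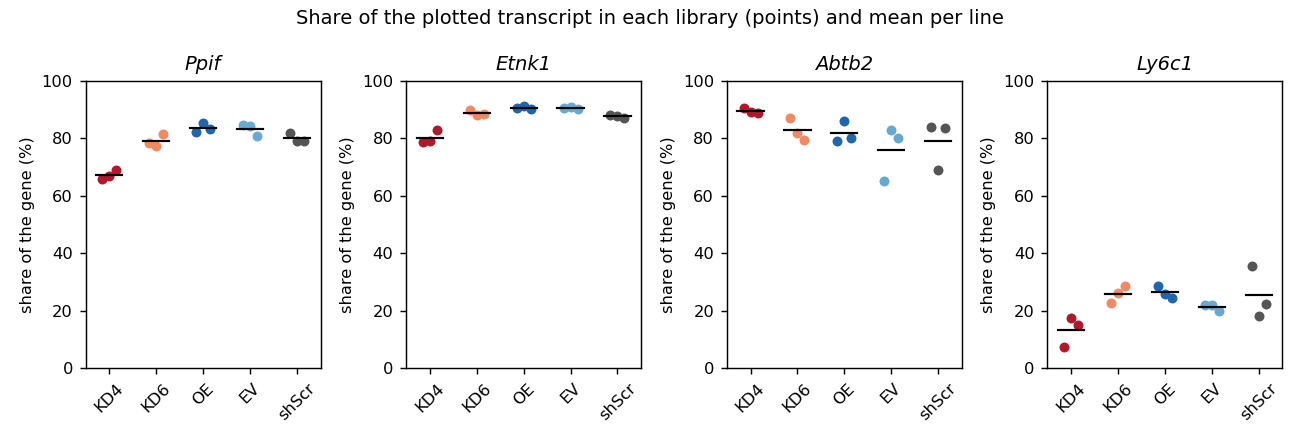
Points give the share of one transcript in its gene, in percent, for each library, and lines the mean of each line. The plotted transcripts were picked because KD4 lies outside the other 12 libraries, and the gap is clearest in Ppif at 66.0% to 69.0%, against 77.4% and above.

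The members were checked in the gene-level tables, which come from the same libraries and are no independent evidence. All 131 were present there. KD4 lay outside the other 12 libraries in 51 of the 52 higher and 75 of the 79 lower members, and the whole selection was met by 49 and 71. Bach2, Arhgap27, Car12, Dpp7 and Creld1 were the members whose KD4 libraries overlapped the others there.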

How the data were processed

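Normalised CPM per transcript (1 table of 15 libraries) and per gene (1 table of the hairpin lines, 1 of OE and EV) were taken as the authors deposited them. The submitters' processing notes name STAR 2.7.8a and build mm39. Another aligner and an earlier build appear in the published methods, so how reads became CPM is not settled. Libraries were made from RNA with an integrity number over 7. CPM was summed per gene over transcripts; 15 further columns match no sample label and were not used. Gene symbols were paired for 128 of the 131 members. The depth behind the CPM is unknown, so no interval for counting error is given.

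KD4 differences chose the members and were not tested. The other 12 libraries were fitted in 1 model of 4 groups with limma 3.58.1 (R 4.3.3) on log2(CPM + 1) with an intensity trend, with Benjamini-Hochberg adjustment over 13142 genes. Fold differences on this scale understate the change of low genes. The fit was tested on simulated data. Per the labels, replicates of a line come from different passages, so p-values measure the spread between passages. Sums, figures and promoter searches used Python 3.11.15, pandas 2.3.3 and matplotlib 3.10.9.

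Named genes were Smarcd1, the 15 members on each side farthest from the nearest line, members in 27 gene lists, up to 5 members per contrast by p, 3 genes on each side of the limit and the 5 largest changes of transcript share. Predicted genes were counted but not named. All other genes in the text (among them Gbp4, Nfe2l2, Kat2b, Ppif, Etnk1, Sox9, Dpp7 and Ube2l6), the grouping by role and the motifs were chosen after their values were seen. The members and lists were chosen with earlier results of these data known. Alternatives were another pseudocount, filters, scalings, the replicate number as a block and leaving out each library.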

Additional observations from a re-analysis of the deposited data

How the results depend on the processing

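The number of members followed the limits: 231 genes met a 1.3-fold limit and 27 a 2-fold limit, against 131. Leaving out each library in turn gave 130 to 180 genes, of which 119 to 131 were among the 131. Rescaling by the median of ratios gave 132 genes, 128 of them shared, and quantile normalization 133, 123 of them shared. For KD6 minus shScr, 598 genes and 16 members became 296 and 9 with the replicate number as a block and 239 and 7 with only KD6 and shScr in the fit. Leaving out a library gave 307 to 580 genes and 7 to 14 members, with 7 to 9 members without KD6 replicate 1 or 2 or any shScr replicate. For the mean of EV and OE minus that of shScr and KD6, 2454 genes became 1532 with the replicate block, and 1603 to 3050 when a library was left out, the lowest without OE replicate 3; its members called stayed between 35 and 44. For OE minus EV no alternative called a gene. Deviations of same-numbered replicates of different lines correlated at -0.461 to 0.239, with 1 of 30 over 0.1. Differently numbered replicates were not compared, so these values cannot decide whether the numbers pair the libraries. For 49 named members, 931 alternative values of the KD4 difference were computed: none changed sign, and 15 moved by more than the replicate SD, 10 with a pseudocount of 0.1, 4 with the gene-level table and 1 without a library. The cause of these changes was not tested. Without KD4 replicate 1 the Srgn difference was -1.06 log2 units, against -1.27. The reads behind low levels are unknown, so their counting error cannot be given.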
